A study of Mus musculus with 4 samples.

Results

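The lysosomal proton pump, the cathepsins and other lysosome genes were followed as 37 genes chosen by symbol. They were taken from the 23997 genes of an RNA sequencing table, with earlier results of these data known. All 37 symbols were in the table, and 35 reached 1 FPKM (fragments per kilobase of transcript, scaled to the fragments mapped) in at least 1 column. The RNA came from C57BL/6 mouse lung endothelium, the lining of the lung's vessels, cultured in EBM-2 with 10% serum. Every culture had 48 h of siRNA, and 1 arm received a control siRNA while the other received one that targets Nr3c1, the gene of the glucocorticoid receptor (GR). Within each arm, cells were kept as they were or exposed for 18 h to 100 nM dexamethasone (DEX), a drug that activates GR. Values are given in the order control siRNA, the same with DEX, GR siRNA, and the latter with DEX. The submitters state 3 replicates per condition, but each condition has a single column, and no label says whether a column is 1 culture or a mean. No value therefore has an error or a test, and each difference below is between columns with no replicate check. The series asks how GR acts in endothelial cells, so the siRNA arms are compared within each DEX state, and the DEX states within each arm.

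The lysosome is the acidic compartment in which cells break down proteins, lipids and glycans. Its acidity is made by the V-ATPase, a rotary pump whose cytosolic V1 sector burns ATP and turns a ring in the membrane-bound V0 sector that carries protons inward. Cathepsins are the main lysosomal proteases, LAMP proteins form much of the lysosomal membrane, and the MiT/TFE transcription factors Tfeb, Tfe3 and Mitf switch on many lysosome genes through the short CLEAR promoter element. In endothelium, lysosomes degrade material taken up from the blood, including lipoproteins.

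Atp6v0c, which encodes the subunit that forms the V0 ring, has to be read together with a processed pseudogene, Atp6v0c-ps2. Atp6v0c spans chromosome 17, 24163866 to 24169702, minus strand, and Atp6v0c-ps2 chromosome 6, 37806086 to 37806550, plus strand (GENCODE M21, the mm10 assembly). The copy is 465 bases long and matched the whole coding sequence of Atp6v0c transcript ENSMUST00000024932.11 without a gap, with a single substitution, T111C, counted from the A of the start codon, an identity of 99.8%. Coding positions 81 to 140 show how little there is to tell the pair apart; the capital marks the base that differs.
Atp6v0c: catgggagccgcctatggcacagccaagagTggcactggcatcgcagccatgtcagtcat
Atp6v0c-ps2: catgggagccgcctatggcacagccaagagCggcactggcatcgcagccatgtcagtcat

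The longest run with no difference was 354 bases. Of the pseudogene's distinct 31-base words, 92.9% also occurred in Atp6v0c transcripts, and 11.9% of the words of Atp6v0c occurred in the pseudogene. The transcript of Atp6v0c extends beyond the copied part, and its longest annotated form has 2567 bases.

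Atp6v0c was listed at 504, 473, 74.5 and 598 FPKM. Its level was low in the GR siRNA column alone, and the other 3 columns stood at 473 FPKM or more. Atp6v0c-ps2 was listed at 99.3, 160.9, 559 and 17.7 FPKM, and it was highest in the column where Atp6v0c was lowest and lowest in the column where Atp6v0c was highest. Their sum was 603, 634, 633 and 615 FPKM, a range of 1.05-fold, against 8.03-fold for Atp6v0c and 31.6-fold for the pseudogene by themselves. The pseudogene took 16.5%, 25.4%, 88.2% and 2.88% of the sum. On the log2(FPKM + 1) scale, used for every difference below, Atp6v0c differed by -2.74 between GR siRNA and control siRNA without DEX and by 0.34 with DEX, whereas the summed pair differed by 0.07 and -0.04. FPKM is scaled by the length of each gene model, so the sum is not a count of fragments. No label says how fragments that match both genes were assigned, and no direction is drawn for Atp6v0c from its own row.

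**Figure D1:**
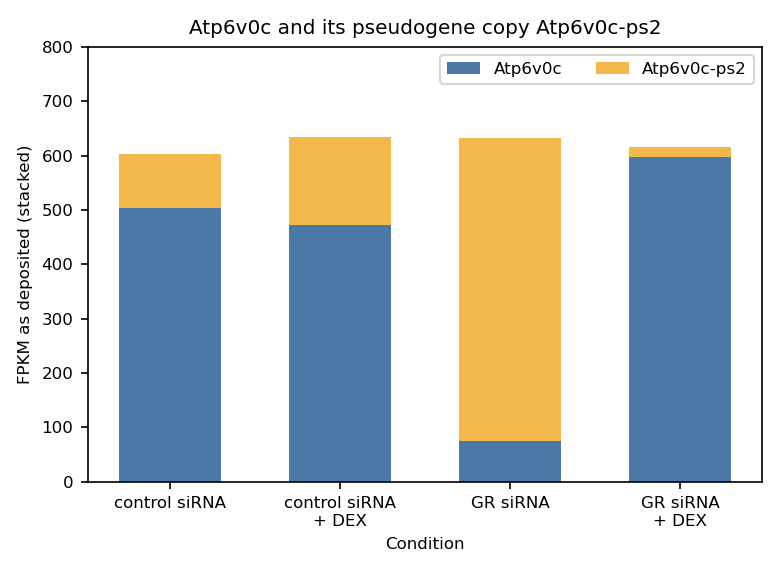
Deposited FPKM of Atp6v0c (blue) and Atp6v0c-ps2 (yellow), stacked, in the 4 conditions, with 1 column per condition. The stack reaches between 603 and 634 FPKM in every condition, while the part listed for Atp6v0c runs from 74.5 to 598 FPKM.

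The CLEAR core TCACGTGA was looked for on both strands in the RefSeq promoters of assembly GRCm38.p6, each with 250 bases before and 50 bases after a gene's start. Promoters were given for 31 of the 37 members. The core was found in 6 of the 31, or 19.4%, against 1.12% of 27025 genes with a promoter and 2.38% of 8574 such genes that reached 1 FPKM. The 6 genes are Atp6v0d1, Atp6v0e, Atp6v1a, Ctsa, Ctsd and Mcoln1, and Ctsa holds the core at a pair of places. The windows below show each core in capitals with its surroundings, 5′ to 3′ on the strand of the gene, because these are the members whose promoter carries the letters that MiT/TFE factors are known to bind.
Atp6v0d1 (minus strand, chr8:105566050-105566079): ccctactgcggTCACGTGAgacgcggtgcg
Atp6v0e (plus strand, chr17:26676387-26676416): tagcgcgccgaTCACGTGAgcctctgttga
Atp6v1a (minus strand, chr16:44139373-44139402): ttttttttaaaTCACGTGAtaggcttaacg
Ctsa, first core (plus strand, chr2:164833749-164833778): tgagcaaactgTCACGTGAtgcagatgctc
Ctsa, next core (plus strand, chr2:164833766-164833795): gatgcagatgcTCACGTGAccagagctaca
Ctsd (minus strand, chr7:142387908-142387937): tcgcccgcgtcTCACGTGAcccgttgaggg
Mcoln1 (plus strand, chr8:3500462-3500491): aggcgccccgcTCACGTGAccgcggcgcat

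The longer CLEAR palindrome, which adds a G before the core and a C after it, was in none of the 31 promoters and in 0.37% of all genes with one. The E-box CACGTG, which lies inside the CLEAR core, was in 9 of 31 (29.0%), against 8.09% of all genes and 12.2% of those that reached 1 FPKM. The full glucocorticoid response element, AGAACA and its reverse complement with 3 bases between them, was in none of the 31 and in 0.0111% of all genes, and its single half-site AGAACA was in 9 of 31, against 21.3% of all genes and 14.2% of those that reached 1 FPKM. These matches describe letters in a window and not binding. The 6 genes with the core did not share a direction in the siRNA comparison: both GR siRNA columns lay above both control columns for Ctsa and Mcoln1, below them for Ctsd as deposited (overlapping after the rescaling described below), and overlapped them for the 3 V-ATPase genes.

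The targeted gene followed the labels. Nr3c1 stood at 14.4, 14.3, 5.45 and 5.32 FPKM. No read depth is given; the FPKM worth of a single fragment in scarce genes gave relative depths of 0.671, 0.962, 1 and 0.811, so low values are least precise in the control siRNA column. Endothelial markers were abundant, with Pecam1 between 275 and 282 FPKM and Cdh5 between 384 and 436 FPKM. The 12 such markers summed to 3056 and 3067 FPKM with control siRNA against 2815 and 2743 FPKM with GR siRNA. Much of that difference lay in Cldn5, at 493, 525, 368 and 332 FPKM, and Egfl7, at 521, 516, 424 and 410 FPKM. Both GR siRNA columns lay below both control columns for 6 of the 12, against 36.6% of all genes. They lay above for 2, Kdr and Esam, against 32.3%, and the arms overlapped for 4. Of 15 macrophage and leukocyte markers in the table, 13 stayed below 1 FPKM in every column and 6 were listed at 0 in all 4, the common leukocyte antigen gene Ptprc among them. Their summed level was 5.18 to 5.19 FPKM in the control columns and 5.83 to 5.90 FPKM in the GR siRNA columns, and the 2 that passed 1 FPKM, Cd14 and Coro1a, were higher in both GR siRNA columns. Of 12 fibroblast and mural markers, 8 stayed below 1 FPKM, and the sum was 15.4 to 17.0 FPKM against 20.0 to 22.4 FPKM. Within that list the fibroblast gene Dcn stood at 0.39, 0.30, 1.99 and 2.73 FPKM, and Acta2 at up to 5.65 FPKM with control siRNA and 8.82 and 7.71 FPKM with GR siRNA. Col1a1 was 0.13, 0.11, 0.47 and 0.23 FPKM and Pdgfra 0.16, 0.13, 0.35 and 0.31 FPKM. These 4 were higher in both GR siRNA columns, though Col1a1 and Pdgfra stayed below 1 FPKM. Of the 4 listed markers that passed 1 FPKM, 2, Dcn and Acta2, lay above. The arms overlapped for the other 2, Tagln and Col3a1, the latter at 1.59, 1.47, 2.26 and 1.54 FPKM. The part of these shifts in the differences below was not tested. In bulk RNA, fewer cells of a type and less RNA per cell cannot be told apart.

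Most of the 37 chosen members were among the more abundant mRNAs of these cells. The median of the 37 members' mean levels was 89.2 FPKM, against 14.4 FPKM over the 11445 genes that reached 1 FPKM in any column, and 31 members stood above the median level of those genes. Together the members, with the Atp6v0c row included, held between 1.10% and 1.20% of each column's summed FPKM. Their summed level was 6235, 6250, 5930 and 6665 FPKM with Atp6v0c, and 5731, 5777, 5856 and 6068 FPKM without it. These levels belong to the chosen symbols and not to lysosome genes in general. The 28 further hydrolases read below summed to 721, 720, 775 and 799 FPKM. The most abundant member was Cd63, a tetraspanin of late endosomes and of Weibel-Palade bodies, at 1027, 1026, 1020 and 1096 FPKM. Next came the aspartic protease Ctsd at 703, 725, 650.2 and 676 FPKM, and Psap, the precursor of the saposins that help enzymes reach lipids, at 548, 556, 547 and 547 FPKM. The order of these 3 was the same in every column. Scarce members were Mitf, at 2.98 to 3.17 FPKM, and Ctsc, at 1.38 to 2.50 FPKM. Ctsk, the collagen-degrading cathepsin best known from osteoclasts, lay between 0.11 and 0.15 FPKM, and Ctss, a cathepsin of antigen-presenting cells, between 0.05 and 0.13 FPKM, and these 2 did not pass the filter of 1 FPKM.

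**Figure D2:**
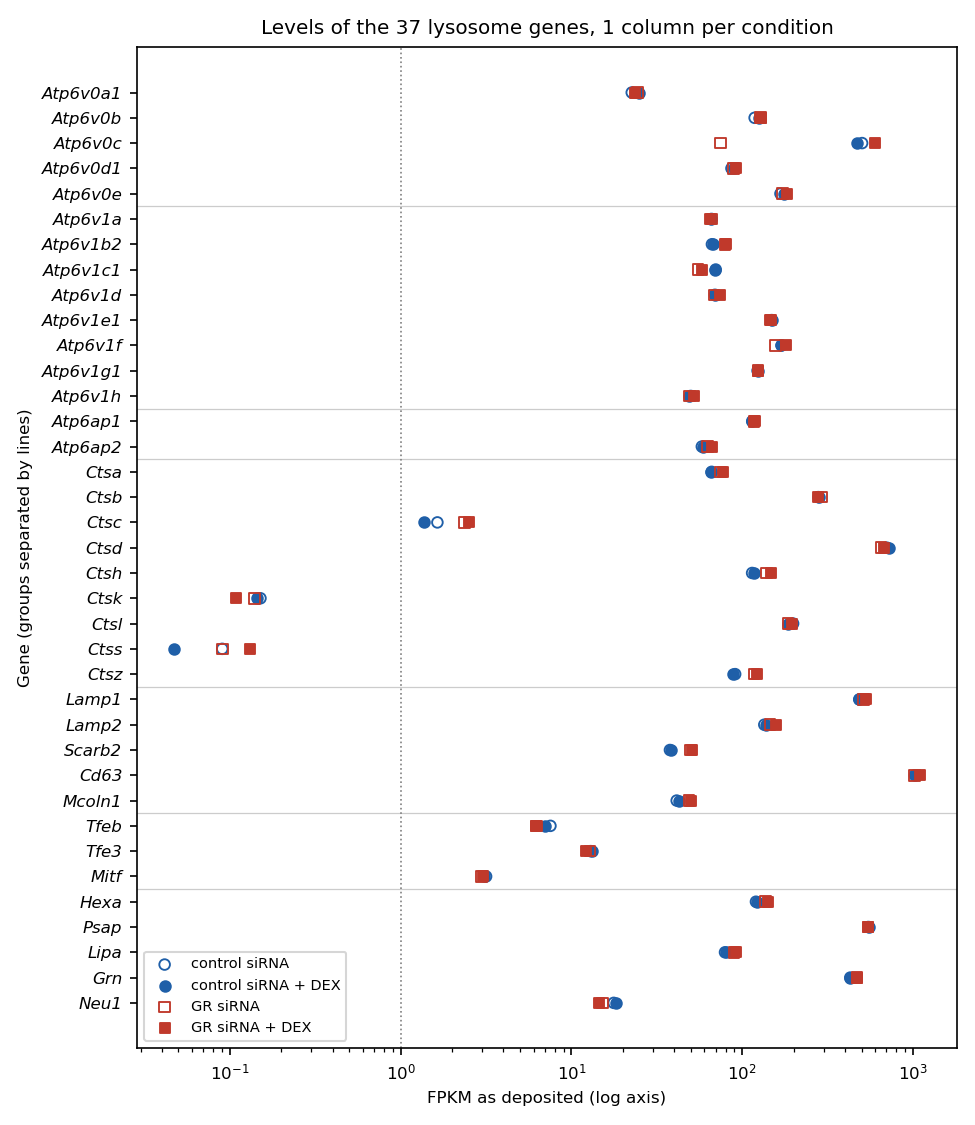
Deposited FPKM (log axis) of the 37 members, 1 point per condition: control arm as circles and GR arm as squares, filled where DEX was given; lines separate V0, V1, accessory V-ATPase subunits, cathepsins, membrane proteins, MiT/TFE factors and hydrolases. Most members have 4 points close together; Ctsk and Ctss lie left of the dotted line at 1 FPKM, and Atp6v0c is the member with a point far from its others.

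Most V-ATPase subunits stood at nearly the same level in all 4 columns. Apart from Atp6v0c, the 14 members of the pump had a median siRNA difference of 0.02 without DEX and 0.05 with DEX, and they ranged from -0.34 to 0.25 without DEX and from -0.24 to 0.25 with DEX. Their summed level was 1331, 1353, 1337 and 1396 FPKM.

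In the V0 sector, which holds the proton channel, Atp6v0e was the most abundant of the 4 members other than Atp6v0c, at 168, 176, 172 and 184 FPKM. Atp6v0b, a second ring subunit, was 118, 125, 127.5 and 128.6 FPKM, and Atp6v0d1, which joins the ring to the central stalk, was 86.5, 89.5, 88.7 and 92.1 FPKM. The column values of Atp6v0e and Atp6v0d1 interleaved between the arms, and those of Atp6v0b were a little higher with GR siRNA. Of the a subunits, which steer the pump to its membrane, the member Atp6v0a1 was 22.6, 24.9, 24.4 and 23.6 FPKM. Among a subunits outside the member list, Tcirg1, the a3 form known from lysosomes of osteoclasts, was higher at 95.1, 101, 109 and 105 FPKM, and Atp6v0a2, the form known from the Golgi, was 27.6, 28.4, 23.0 and 21.8 FPKM. Atp6v0a4, the kidney form, stayed below 0.01 FPKM.

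In the V1 sector, which hydrolyses ATP, a pair of subunits differed between the siRNA arms in opposite directions. Atp6v1c1, a stalk subunit that takes part in joining V1 to V0 (chromosome 15, 38661933 to 38692446), was 70.0 and 69.2 FPKM in the control columns and 55.0 and 58.4 FPKM in the GR siRNA columns. Atp6v1b2, the B subunit of the catalytic head (chromosome 8, 69088646 to 69113711), was 66.5 and 67.7 FPKM against 79.2 and 80.6 FPKM. The arms did not overlap for either gene, and the log2 differences without and with DEX were -0.34 and -0.24 for Atp6v1c1 and 0.25 and 0.25 for Atp6v1b2. The catalytic A subunit gene Atp6v1a, the partner of the B subunit in the head, lay between 65.2 and 66.5 FPKM in all 4 columns.

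The remaining V1 members differed less. Atp6v1e1 and Atp6v1g1, which form the outer stalks, lay between 146 and 149.9 FPKM and between 123 and 124 FPKM. Atp6v1d of the central stalk was 69.3, 69.6, 68.5 and 74.3 FPKM and Atp6v1h, a regulatory subunit, 49.98, 49.1, 49.1 and 52.0 FPKM. Atp6v1f was 170.3, 168, 156 and 180.0 FPKM, and both the lowest and the highest value were GR siRNA columns. Of its 31-base words, 18.4% occur in another annotated gene, and of those of Atp6v1g1, 24.0%. Tissue-restricted forms outside the member list were scarce: Atp6v1b1 was listed at 0 in every column, and Atp6v1c2, Atp6v1e2 and Atp6v1g3 stayed below 0.12 FPKM. The exception was Atp6v1g2, best known from neurons, at 4.17, 5.01, 2.56 and 2.67 FPKM, lower in both GR siRNA columns.

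The accessory subunits were slightly higher with GR siRNA. Atp6ap1 was 114.5, 114.3, 117 and 119.5 FPKM. Atp6ap2, also known as the prorenin receptor, was 58.0, 59.4, 62.5 and 66.2 FPKM. The arms did not overlap for either, with log2 differences from 0.03 to 0.16.

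Of the 7 measured cathepsins, 4 were higher in both GR siRNA columns, against 32.3% of all genes. The largest differences were in Ctsc, Ctsz and Ctsh. Ctsz, a carboxypeptidase (chromosome 2, 174427493 to 174439039), was 91.0 and 88.6 FPKM in the control columns and 117 and 122.5 FPKM in the GR siRNA columns. Ctsh, an aminopeptidase (chromosome 9, 90054152 to 90076089), was 114 and 117 FPKM against 139 and 148 FPKM. Ctsc, which activates serine proteases of immune cells (chromosome 7, 88278085 to 88310888), was 1.64 and 1.38 FPKM against 2.36 and 2.50 FPKM. For all 3 genes both GR siRNA columns lay above both control columns, and the log2 differences without and with DEX were 0.36 and 0.46 for Ctsz, 0.28 and 0.34 for Ctsh, and 0.35 and 0.56 for Ctsc. As a plain ratio of FPKM, Ctsc was 1.44-fold higher without DEX and 1.81-fold higher with DEX, on a level where the least deep column is imprecise.

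Other cathepsins differed less or in the other direction. Ctsa, a carboxypeptidase that also protects the sialidase Neu1, was 66.2, 65.6, 74.5 and 77.1 FPKM, higher in both GR siRNA columns. Ctsd was lower in both as deposited, with log2 differences of -0.11 and -0.10, and its arms overlapped after the columns were rescaled to a common upper quartile. Ctsb, a broad cysteine protease, was 279, 280.2, 291 and 279.7 FPKM, and Ctsl, which also cuts proteins outside the lysosome, was 199, 185, 185 and 196 FPKM. The arms overlapped for Ctsb and Ctsl. Between 13.0% and 33.2% of the 31-base words of Ctsa, Ctsb, Ctsd and Ctsl occur in another annotated gene, against 1.71% or less for Ctsz, Ctsh and Ctsc.

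Lysosomal membrane proteins leaned the same way as Ctsz and Ctsh. Scarb2, encoding LIMP-2, the receptor that carries glucocerebrosidase to the lysosome (chromosome 5, 92441314 to 92506833), was 37.8 and 38.2 FPKM in the control columns and 49.8 and 50.9 FPKM in the GR siRNA columns. Mcoln1, encoding the calcium channel TRPML1 (chromosome 8, 3500457 to 3515232), was 41.4 and 42.9 FPKM against 48.9 and 49.8 FPKM. The log2 differences were 0.39 and 0.40 for Scarb2 and 0.24 and 0.21 for Mcoln1. Within an arm, each of these genes differed by up to 0.05 between the DEX states.

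The LAMP genes had smaller differences. Lamp1 was 484.9, 485, 513 and 529 FPKM and Lamp2, the LAMP that takes part in chaperone-mediated autophagy, 135, 139, 145 and 158 FPKM. Both GR siRNA columns lay above both control columns for each of these genes, and the arms overlapped for Cd63.

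Mean levels of the 3 MiT/TFE members lay below 14.4 FPKM, the median of genes that reached 1 FPKM, Tfe3 only slightly. Tfeb was lower with GR siRNA. Tfeb (chromosome 17, 47737030 to 47792419) was 7.54 and 7.03 FPKM in the control columns and 6.25 and 6.20 FPKM in the GR siRNA columns, with log2 differences of -0.23 and -0.16. Tfe3 was 13.0, 13.2, 12.8 and 12.2 FPKM and Mitf 3.17, 3.07, 2.98 and 3.02 FPKM. All 3 were lower in both GR siRNA columns as deposited; after rescaling the columns to a common upper quartile this held for Tfeb, while the arms overlapped for Tfe3 and Mitf. The family's other gene, Tfec, named after its values were seen, had a higher level than these at 24.2, 24.0, 21.1 and 23.4 FPKM.

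Among hydrolases and their helpers, Hexa, Lipa and Grn were higher with GR siRNA and Neu1 was lower. Lipa, the acid lipase that frees cholesterol from lipoprotein esters, was 79.3, 80.2, 89.6 and 92.2 FPKM, with log2 differences of 0.17 and 0.20. Hexa, a subunit of the hexosaminidase that degrades gangliosides, was 120.4, 122, 137 and 143 FPKM. Grn, the progranulin precursor, was 429.5, 429.9, 471 and 468 FPKM. In these 3 genes the DEX states of an arm differed by less than the arms did.

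Neu1, the lysosomal sialidase (chromosome 17, 34931253 to 34935953), was 17.7 and 18.2 FPKM in the control columns against 15.2 and 14.5 FPKM in the GR siRNA columns. Its log2 differences, -0.20 and -0.32, were opposite in sign to those of its partner Ctsa, 0.17 and 0.23. Psap lay between 546.9 and 555.9 FPKM in all 4 columns.

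**Figure D3:**
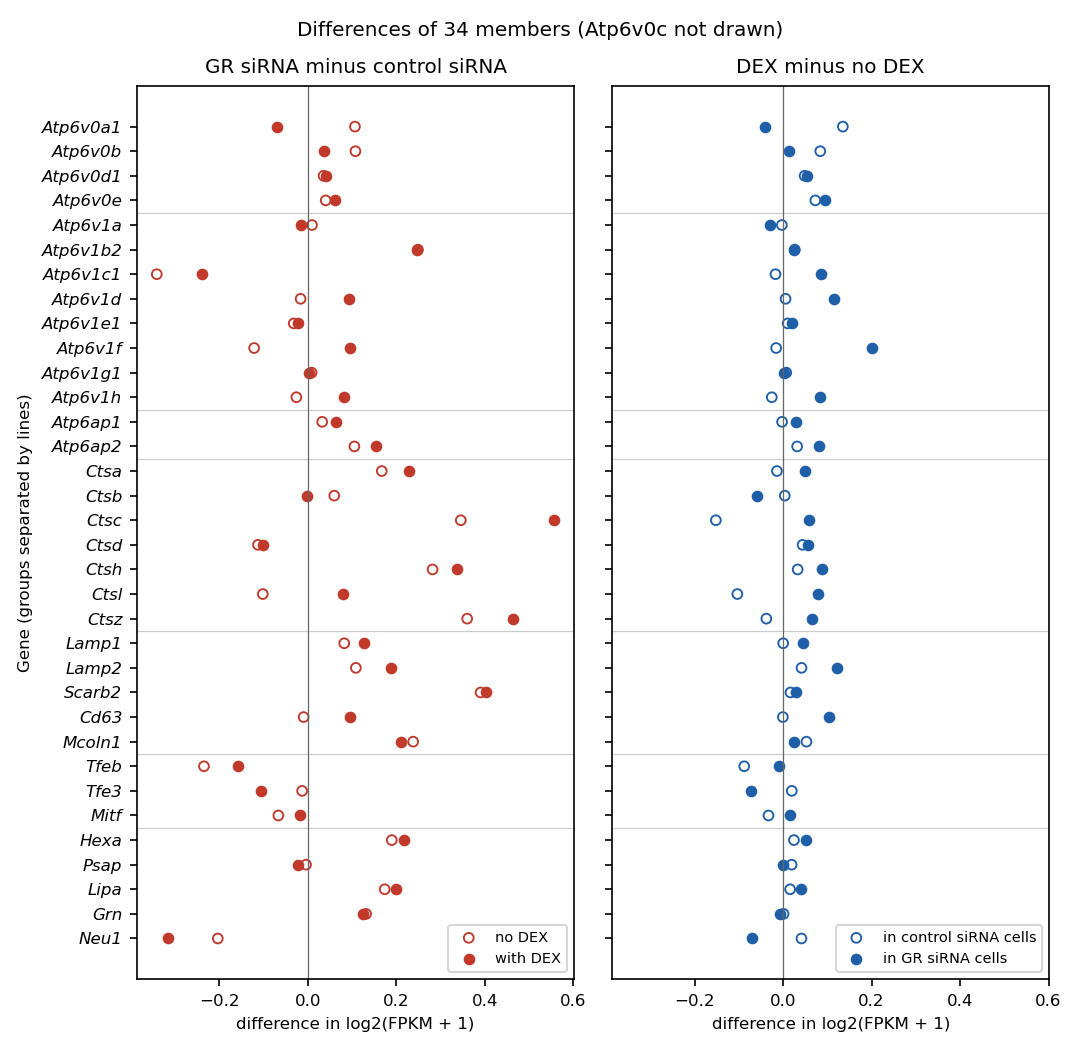
Differences in log2(FPKM + 1) for the 34 measured members other than Atp6v0c. Left, GR siRNA minus control siRNA without (open) and with (filled) DEX; right, DEX minus no DEX in control siRNA (open) and GR siRNA (filled) cells; both panels share an axis. Points spread from -0.34 to 0.56 on the left and from -0.15 to 0.20 on the right.

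Counted over the members, the siRNA differences were small and uneven in direction. At 1.5-fold, 1 of 35 members was past the threshold without DEX, against 4.9% of 11325 genes tested, and 0 with DEX, against 4.98% of 11344. The 1 member was Atp6v0c, whose difference was absent from the summed pair. A lower threshold, 0.32 on the log2 scale, was passed by 5 of 35 members without DEX, against 16.6% of all genes. Of these, Ctsc, Ctsz and Scarb2 were higher, 3 members against 7.7% of all genes, and Atp6v0c and Atp6v1c1 lower, 2 members against 8.86%. With DEX, 5 of 35 passed it, against 16.5%; by their own rows these were Atp6v0c, Ctsc, Ctsh, Ctsz and Scarb2, all higher, against 7.78% of all genes, and 0 were lower, against 8.69%. With the Atp6v0c pair summed, which gave -0.04, 4 members were on the higher side. The median difference of the 35 members was 0.04 without DEX and 0.08 with DEX, beside -0.01 and -0.01 over all genes tested; after upper quartile rescaling it was 0.11 and 0.07, beside 0.05 and -0.02.

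The comparisons without and with DEX share no column, so a gene can be read in both. Both GR siRNA columns lay above both control columns for 16 of 35 members, against 32.3% of 11445 genes, and below them for 8, against 36.6%. After rescaling to a common upper quartile the counts were 15 and 3, against 34.4% and 27.9%. Apart by at least 0.32 in both DEX states were Ctsc, Ctsz and Scarb2 above, 3 of 35 against 4.95%, and 0 below, against 5.7%. The 5 genes that after rescaling overlapped from below were Atp6v1e1, Ctsd, Tfe3, Mitf and Psap, and Atp6v1g1 overlapped from above. A gap between the arms wider than the wider DEX difference within an arm was found for 12 members above, against 19.4% of all genes, and for 4 below, Atp6v1c1, Ctsd, Neu1 and Tfeb, against 22.2%. The 12 were Atp6ap1, Atp6v1b2, Ctsa, Ctsc, Ctsh, Ctsz, Grn, Hexa, Lamp1, Lipa, Mcoln1 and Scarb2. Of the 20 measured members outside the pump, 11 (55%) had both GR siRNA columns above both control columns and 6 (30%) below. The 15 pump members gave 5 (33.3%) and 2 (13.3%), beside 32.3% and 36.6% of all genes.

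**Figure D4:**
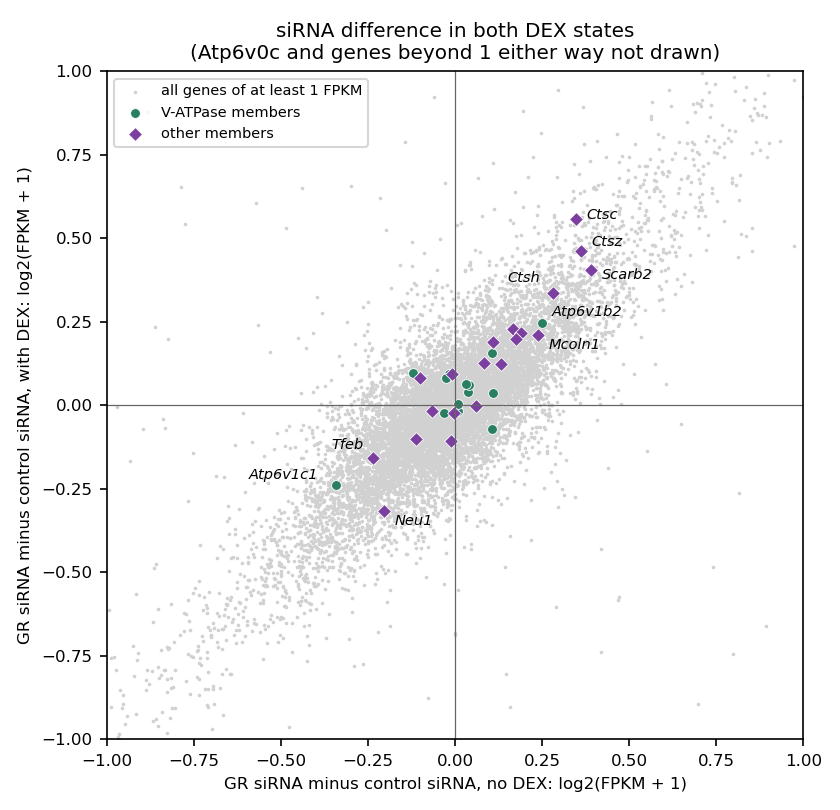
GR siRNA minus control siRNA in log2(FPKM + 1) without DEX (x axis) and with DEX (y axis) for all genes of at least 1 FPKM (grey), V-ATPase members (circles) and other members (diamonds); Atp6v0c, at -2.74 and 0.34, and genes beyond 1 on either axis are not drawn. Ctsc, Ctsz, Scarb2 and Ctsh lie farthest to the upper right among members and Neu1, Atp6v1c1 and Tfeb to the lower left, all inside the grey cloud.

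Members other than Atp6v0c differed little between the DEX states in either arm. In control siRNA cells 0 of 35 members reached 0.32, against 1.91% of 11227 genes, and 0 reached 1.5-fold, against 1.08%. The differences ran from -0.15 for Ctsc to 0.14 for Atp6v0a1, with a median of 0.01 beside -0.01 over all genes tested, and 0.10 beside 0.08 after upper quartile rescaling. In GR siRNA cells 1 of 35 reached 1.5-fold, against 1.18% of 11310 genes, and it was Atp6v0c at 2.99; the summed pair differed by -0.04. The other 34 ran from -0.07 for Tfe3 to 0.20 for Atp6v1f, with a median of 0.04. The difference of the siRNA differences between DEX states exceeded 1.5-fold for Atp6v0c alone among 35, against 1.71% of 11445 genes; among the others it ran from -0.18 for Atp6v0a1 to 0.22 for Atp6v1f. The 2 DEX comparisons share no column with each other, but each shares its columns with both siRNA comparisons.

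Other lysosome genes, from lists of genes that were not members, were read in the same way. Of 28 further hydrolases, all measured, both GR siRNA columns were above both control columns for 18 (64.3%) and below for 4 (14.3%). The same shares of all genes were 32.3% and 36.6%. The acid alpha-glucosidase gene Gaa was 22.3, 22.2, 35.0 and 32.4 FPKM and the aspartylglucosaminidase gene Aga 31.4, 31.6, 41.4 and 44.3 FPKM. Gm2a, the activator protein that presents gangliosides to hexosaminidase, was 1.77, 1.85, 2.73 and 2.62 FPKM. The list's median difference was 0.09 without DEX and 0.15 with DEX.

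Of 21 further membrane proteins measured, 13 were above and 4 below, against 32.3% and 36.6% of all genes. The largest difference was that of Ostm1, the partner subunit of a lysosomal chloride transporter, at 29.7, 29.6, 15.8 and 16.6 FPKM, lower in both GR siRNA columns. The cation channel gene Tpcn1 was 28.1, 27.3, 35.4 and 34.1 FPKM. Cd68, a LAMP-like protein best known from macrophages, was 176, 160.7, 194 and 218 FPKM, higher in both GR siRNA columns, as was the summed macrophage and leukocyte list above; the part of such cells in this difference was not tested. Gpnmb was 0.75, 0.62, 1.62 and 1.76 FPKM.

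Of 7 further lysosomal proteases measured, 5 were above and 1 below, against 32.3% and 36.6% of all genes. Scpep1, a serine carboxypeptidase, was 66.0, 61.5, 97.8 and 103 FPKM. Dpp7 was 16.2, 16.6, 20.2 and 21.98 FPKM and Tpp1, the tripeptidyl peptidase, 67.1, 65.4, 76.8 and 80.2 FPKM. Of 8 factors that assemble or protect the pump, 4 were above and 3 below, against the same shares of all genes. Ncoa7 was 19.5, 19.6, 15.3 and 15.0 FPKM and Ccdc115 was 23.0, 23.6, 25.5 and 29.4 FPKM.

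Genes that control the lysosome and genes of autophagy were read against the same shares of all genes, 32.3% above and 36.6% below. Of 19 genes of the mTORC1 complex and of TFE control, 5 (26.3%) were above and 10 (52.6%) below. Lamtor2, a scaffold protein that holds mTORC1 at the lysosome, was 96.1, 90.7, 71.0 and 71.6 FPKM, and Rragc, a GTPase of the same assembly, 58.4, 58.4, 51.3 and 53.6 FPKM. Ppp3ca, a catalytic subunit of calcineurin, which is known to dephosphorylate TFEB, was 55.8, 53.9, 46.5 and 48.2 FPKM. Fnip2, a partner of the folliculin protein that acts on these GTPases, was higher in both GR siRNA columns at 8.41, 8.33, 9.67 and 9.19 FPKM. Of 19 autophagy genes, 5 (26.3%) were above and 7 (36.8%) below, with Gabarapl1 at 48.2, 49.3, 39.3 and 41.1 FPKM and Atg7 at 19.5, 19.9, 23.9 and 23.1 FPKM. After upper quartile rescaling the counts above and below were 20 and 4 for the hydrolases and 13 and 3 for the membrane proteins. They were 4 and 6 for mTORC1 and TFE control, and 4 and 5 for autophagy. The shares of all genes were then 34.4% and 27.9%. No difference between lists was tested.

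**Figure D5:**
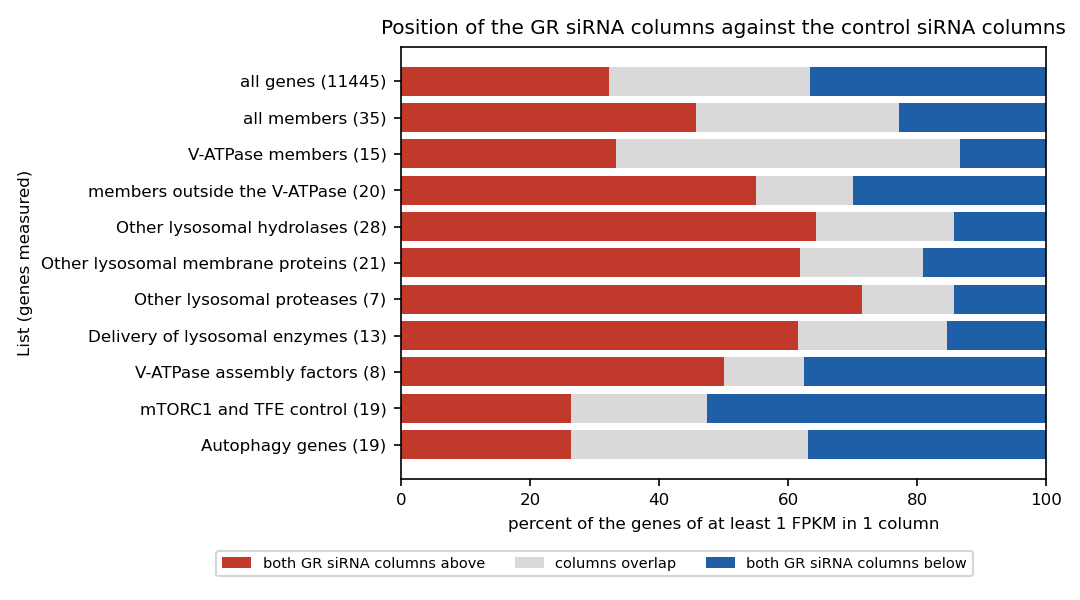
Percent of the measured genes of each list whose GR siRNA columns both lie above (red), overlap (grey) or both lie below (blue) the control siRNA columns; the number of genes measured follows each name. All genes stand at 32.3% above and 36.6% below, the members at 45.7% and 22.9%, and the further hydrolases at 64.3% and 14.3%.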

How the data were processed

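RNA of 4 conditions was measured by RNA sequencing. Per the submitters' processing notes, the authors' tools include TopHat2 and Cuffdiff, and the build was mm10. Not given in the sources used here are versions, gene models, strandedness and how replicates were combined. The deposited values are FPKM per gene, a unit that keeps no read counts; values of near-identical genes depend on how fragments that match several genes were assigned, which no label records. Columns were mapped to conditions by name. Differences are on log2(FPKM + 1), which understates those of scarce genes, over genes with 1 FPKM or more in either column, and were counted at 1.5-fold and at 0.32 (log2) beside all genes tested. With 1 column per condition no test was run. Relative depth came from the modal ratio between columns of values under 0.1 FPKM, taken within 0.2%.

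Members and lists were chosen with earlier results of these data known. Every member could be named, and up to 4 genes of each of the 9 further lists, those with the largest mean siRNA difference; Tfec, Stfa3 and the scarce V-ATPase forms were added after their values were seen. The values of 1 gene that the rule names are not reported here. Gene positions and shared 31-base words came from GENCODE M21, and promoters from RefSeq (GRCm38.p6). The difference step was tested on simulated data. Python 3.11.15, numpy 2.4.6 and pandas 2.3.3 were used.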

Additional observations from a re-analysis of the deposited data

Results flagged for a closer look

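For Atp6v0c the siRNA difference had opposite signs in the 2 DEX states, -2.74 without DEX and 0.34 with DEX on the log2(FPKM + 1) scale. It was the single measured member with differences of at least 0.32 in opposite directions under the same contrast. The difference between the states was not tested. Atp6v0c-ps2 had 2.48 and -3.11 in the same comparisons, and the sum of the pair had 0.07 and -0.04.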

How the results depend on the processing

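With 1 column per condition, no spread between cultures is available, and low values, such as those of Ctsc, are limited by a depth that is known only in relative terms. With Atp6v0c summed with Atp6v0c-ps2, and likewise without the 9 members that share 10% or more of their 31-base words with another gene, the count at 1.5-fold was 0 in place of 1 for GR siRNA without DEX, for DEX in GR siRNA cells and for the interaction. Those 9 members were Atp6v0c, Atp6v1f, Atp6v1g1, Ctsa, Ctsb, Ctsd, Ctsl, Cd63 and Hexa, with 15.9% shared for Cd63 and 11.4% for Hexa. Summed, the Atp6v0c differences were 0.0706 (siRNA, no DEX), -0.0427 (siRNA, with DEX) and -0.0418 (DEX in GR siRNA cells), each opposite in sign to the gene's own row. A threshold of 0.32 (log2) gave 5 members in each siRNA comparison in place of 1 and 0, and a pseudocount of 0.1 FPKM gave 1 in place of 0 with DEX. The median interaction of the members was 0.03 as deposited and -0.0615 after upper quartile rescaling, beside 0.00179 and -0.0790 over all genes tested. The cause was not tested. The same rescaling moved the members' median from 0.0355 to 0.110 for GR siRNA without DEX and from 0.00718 to 0.102 for DEX in control siRNA cells, while that of all genes moved from -0.01 to 0.05 and from -0.01 to 0.08. Under the other settings these members' medians ran from 0.0323 to 0.0612 and from 0.00556 to 0.0163. No paired analysis was possible because each condition has 1 column and 1 replicate number, and the fit with a replicate block was not run.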

Other observations

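Of 3 measured inhibitors of the cathepsins, 2 were higher and 1 was lower in both GR siRNA columns, against 32.3% and 36.6% of all genes. Cst3, encoding the secreted inhibitor cystatin C, was 188, 192, 256 and 277 FPKM in the order used above, and Cst6, another secreted cystatin, was 10.4, 11.5, 18.7 and 20.8 FPKM. For both genes the GR siRNA columns lay above the control columns, with log2 differences without and with DEX of 0.44 and 0.52 for Cst3 and 0.78 and 0.80 for Cst6. The cytosolic inhibitor Cstb was 258, 246, 209 and 231.5 FPKM, lower in both GR siRNA columns. Stfa3 was below 1 FPKM in every column and listed at 0 in both control columns.

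Of 13 genes that deliver enzymes to the lysosome, the GR siRNA columns were both above the control columns for 8 and both below for 2. The same shares of all genes were 32.3% and 36.6%. The list's median difference was 0.15 without DEX and 0.12 with DEX. Igf2r, the large mannose 6-phosphate receptor, was 1.81, 1.59, 2.61 and 2.50 FPKM. The sorting adaptors Gga2 and Gga3 were 7.94, 8.10, 11.7 and 10.9 FPKM and 6.64, 6.96, 8.06 and 8.80 FPKM, and Nagpa, which uncovers the mannose 6-phosphate tag, was 22.7, 24.2, 27.1 and 28.0 FPKM.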
